A study of Homo sapiens with 4 samples.

Results

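CHD5 and H3K27me3 were described at the loci of 10 genes that encode chromatin regulators, in the human neuroblastoma cell line SH-SY5Y. The genes are CHD5, CHD3, CHD4 and HDAC2 of the nucleosome remodelling and deacetylase complex (NuRD), EZH2, EZH1, SUZ12, EED and JARID2 of the Polycomb repressive complex that methylates histone H3 at lysine 27, and KDM6B, a demethylase of that mark. A locus was the gene span in build hg19, rounded to 1 kb, with 20 kb on either side, and a listed row belonged to it when it shared at least 1 bp with that window. The CHD5 list placed 30 of its 32543 peaks at these loci, and the H3K27me3 list placed 1 of its 257073 regions there.

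The data are chromatin immunoprecipitation libraries of cells kept in 10 uM retinoic acid for 8 days, a treatment that gives this line neuron-like features. FBio-CHD5, a tagged form of the remodeller, was captured on streptavidin beads from cells expressing it, and an H3K27me3 antibody was used on chromatin of the same FBio-CHD5 expressing cells. A pull-down from Fbio-Ctrl expressing cells and an input library complete the 4 libraries, and region lists for these were not used here. Each group had 1 library, so no value below has a replicate error and no test between groups was possible. The lists hold no read counts, so the depth of the libraries is unknown. The expression of markers of the cell type was not measured by these profiles, and whether the cells that express FBio-CHD5 are 1 clone is not given in the sources used here.

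NuRD joins nucleosome remodelling, driven by ATP, to histone deacetylation. CHD3, CHD4 and CHD5 are alternative motor subunits of such complexes, CHD5 being found mainly in neurons, and the CHD5 gene lies on the short arm of chromosome 1 in a stretch often lost in neuroblastoma. In the Polycomb complex, EZH2 or EZH1 is the methyltransferase, SUZ12 and EED are core subunits, EED also binds the finished mark, and JARID2 is an accessory subunit that helps bring the complex to its targets. KDM6B removes the methyl groups.

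The sequence at the gene start is shown for 4 members, because the CHD5 peaks separated the loci by their starts. A CHD5 peak lay at the starts of HDAC2 and JARID2, and none lay near those of EZH2 and EED. Each run holds 250 bases before and 50 bases after the RefSeq start, 5′ to 3′ on the gene's strand, from build GRCh38.p14, with CG dinucleotides in capitals. HDAC2 is on the minus strand at chr6:113971099-113971398, JARID2 on the plus strand at chr6:15245819-15246118, EZH2 on the minus strand at chr7:148884242-148884541 and EED on the plus strand at chr11:86244503-86244802. These positions belong to GRCh38.p14 and not to hg19, the build of all other coordinates below.
HDAC2: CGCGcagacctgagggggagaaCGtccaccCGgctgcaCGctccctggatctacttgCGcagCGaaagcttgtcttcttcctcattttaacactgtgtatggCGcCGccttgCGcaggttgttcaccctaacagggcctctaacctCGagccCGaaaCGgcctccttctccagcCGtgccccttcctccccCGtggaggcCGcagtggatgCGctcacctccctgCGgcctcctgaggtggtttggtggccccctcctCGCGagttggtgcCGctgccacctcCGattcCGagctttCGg
JARID2: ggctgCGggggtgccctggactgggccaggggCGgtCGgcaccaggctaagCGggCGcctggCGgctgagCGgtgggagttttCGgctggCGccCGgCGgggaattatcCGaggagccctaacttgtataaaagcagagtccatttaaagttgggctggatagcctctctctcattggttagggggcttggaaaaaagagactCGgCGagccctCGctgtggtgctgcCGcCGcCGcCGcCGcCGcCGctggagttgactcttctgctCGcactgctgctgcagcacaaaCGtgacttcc
EZH2: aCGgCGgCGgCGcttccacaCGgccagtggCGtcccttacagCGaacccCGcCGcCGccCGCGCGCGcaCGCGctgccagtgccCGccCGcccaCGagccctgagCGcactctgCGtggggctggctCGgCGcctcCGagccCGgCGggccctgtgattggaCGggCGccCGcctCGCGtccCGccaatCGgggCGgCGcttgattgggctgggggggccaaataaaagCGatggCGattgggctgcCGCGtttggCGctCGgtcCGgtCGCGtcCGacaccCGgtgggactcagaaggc
EED: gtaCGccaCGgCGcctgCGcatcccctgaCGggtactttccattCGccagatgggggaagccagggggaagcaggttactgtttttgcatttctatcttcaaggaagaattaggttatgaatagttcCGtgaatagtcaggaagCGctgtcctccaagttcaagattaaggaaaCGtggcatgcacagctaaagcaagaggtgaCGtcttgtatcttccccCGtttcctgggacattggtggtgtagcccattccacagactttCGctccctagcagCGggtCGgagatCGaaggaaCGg

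Among the 9 members with a RefSeq promoter, those with a CHD5 peak near the start of the span did not as a group have more CG dinucleotides in that promoter. HDAC2, JARID2, CHD4 and KDM6B had 24 each, a number that 33.9% of the 35116 RefSeq promoters of this length reached, and CHD3 had 10. All 5 had a CHD5 peak within 2 kb of the start of the hg19 span. Of the 4 without one, EZH2 had 46, which 2.89% of promoters reached, SUZ12 had 40, EZH1 had 30 and EED had 16. The median of all promoters was 14. The table lists 2 starts for EZH2, JARID2 and KDM6B, of which the one at the end of the RefSeq gene was taken. For CHD3 and CHD4 the only listed start lies inside the RefSeq gene. Their CG counts may therefore belong to another start than the one the CHD5 peak is near. The nuclear receptor half-site AGGTCA was in 0 of the 9 promoters on either strand, against 13.8% of all promoters. TATAAA was in 1, that of JARID2, against 11.5%, and the E-box CANNTG, which reads alike on both strands, was in 5, against 68.7%. No member promoter held more than 1 kind of these motifs, while CHD3 and KDM6B held CANNTG at 2 places each, and a missing match concerns only these letters in this window.

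CHD5 peaks were listed at 9 of the 10 loci, and H3K27me3 at 1 of them, that of CHD5 itself. For comparison, 44.0% of the 36183 non-overlapping windows of 81.5 kb, the median member window, held a CHD5 peak, 35.7% held an H3K27me3 region and 9.46% held both. With windows of each locus's own length and chromosome, the CHD5 share ran from 32.8% for EED to 73.5% for JARID2. It was below 44.0% only for EED, HDAC2 and CHD4. The windows were not chosen for holding a gene. The 4 NuRD genes had 10 CHD5 peaks, the 5 Polycomb genes had 17, and KDM6B had 3. These counts are not scaled by length and do not rank the groups. Windows were 68 to 120 kb long at the NuRD genes and 75 to 316 kb at the Polycomb genes. JARID2 alone had 14 of the Polycomb peaks, and the remaining 9 loci together had 16. Of the 30 peaks, 21 touched the gene span, 4 lay beyond its start and 5 beyond its end. Of these 21, 14 were at JARID2, whose span fills 276 kb of its 316-kb window. The counts are not scaled by the length of spans and flanks and show no preference for the gene bodies. Whether the pull-down of the control construct is enriched at any of them was not analysed here.

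**Figure D1:**
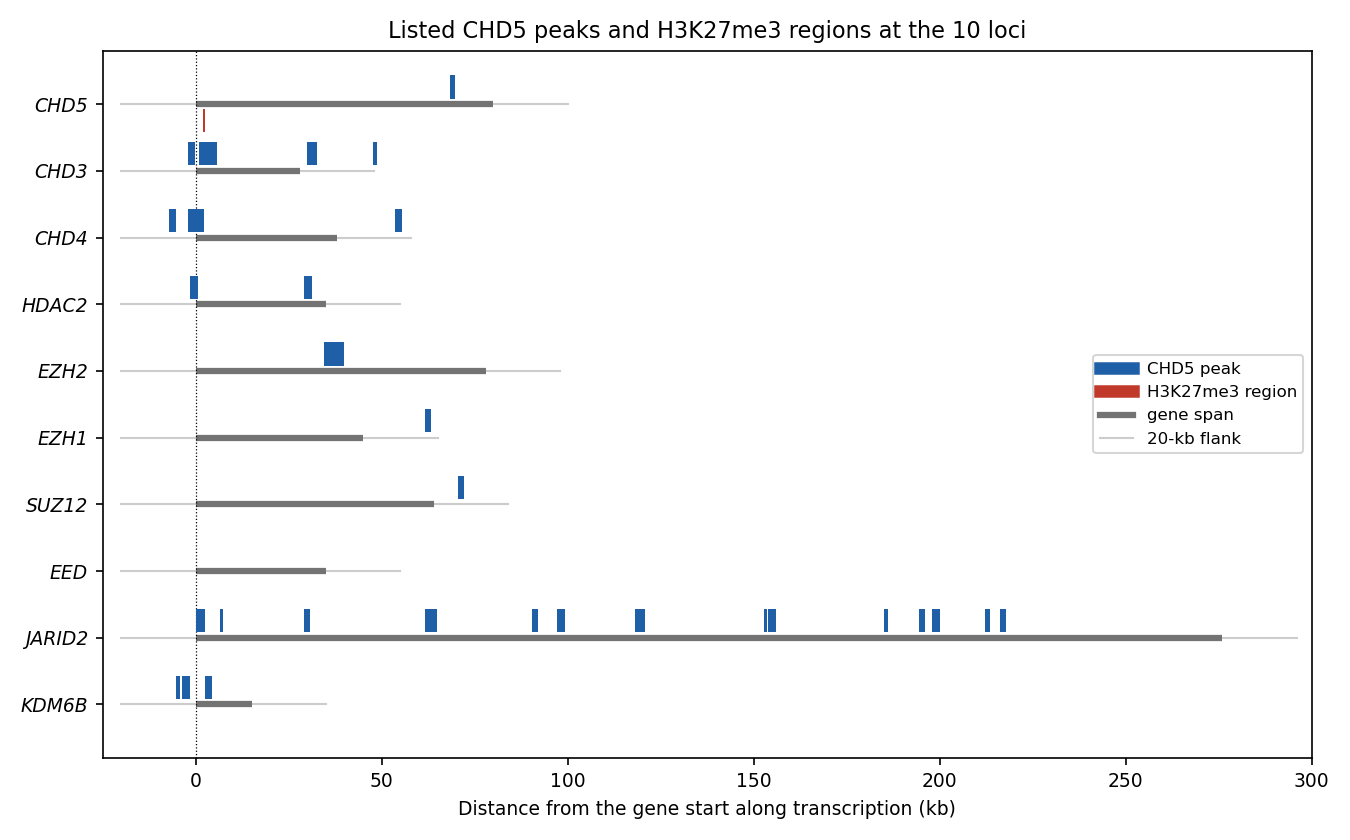
Listed CHD5 peaks (blue, above each line) and H3K27me3 regions (red, below) at the 10 loci, drawn to scale against the distance from the gene start in kb along the direction of transcription, with the gene span as a thick grey line and the 20-kb flanks as a thin one. The 14 JARID2 peaks run from the start into the gene, CHD3, CHD4, HDAC2 and KDM6B have peaks around the start, EED has no row of either list, and the only red mark is near the start of CHD5.

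At the CHD5 gene, an H3K27me3 region lay near the start and the only CHD5 peak lay near the other end. The gene is on the minus strand of chromosome 1, with its span from 6161000 to 6241000. The H3K27me3 region, chr1:6238501-6239145, was 645 bp wide, lay 1.85 kb inside the gene from its start and had a score of 246.92, the authors' value for the region. In its list, 88.7% of regions scored lower and 91.5% were narrower. It stood alone: the nearest other H3K27me3 regions were 341 kb away on the lower side and 239 kb away on the upper side, so it formed a domain by itself.

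Lone H3K27me3 regions were rarely this strong. In the whole list, 1727 regions, or 0.672%, had no other region within 100 kb, and their median score was 60.83 and their median width 161 bp. Of these, 16, or 0.926%, scored at least as high as the region at CHD5, and 11 were at least as wide, both counts including it. The list as a whole had a median score of 84.59 and a median width of 238 bp.

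The CHD5 peak in the CHD5 gene, chr1:6171374-6172571, was 1198 bp wide and lay 68.4 to 69.6 kb downstream of the start, 65.9 kb from the H3K27me3 region. Its score of 123.62 was close to the list median of 117.1. With 0.833 peaks per 100 kb the locus was below its chromosome, which had 1.41. On chromosome 1, 63.0% of windows of this length held a CHD5 peak and 31.7% an H3K27me3 region. Between 20 and 200 kb from the span 11 more CHD5 peaks were listed, the nearest at 41.3 kb, with scores up to 151.9, and no H3K27me3 region. The start itself was 53.7 kb from the nearest CHD5 peak. The cells carried a CHD5 construct, so where the construct and the gene share sequence their DNA cannot be told apart in either library.

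CHD3 and CHD4, the other motor subunits, had CHD5 peaks at their starts. At CHD3, on the plus strand of chromosome 17 from 7788000 to 7816000, there were 4 peaks. The strongest, chr17:7788820-7793719, began 0.82 kb inside the gene, was 4900 bp wide and scored 726.07, above 97.7% of the list. A second, chr17:7785812-7787828, ended 0.17 kb before the start and scored 253.8. The others, chr17:7818020-7820506 and chr17:7835557-7836604, lay beyond the gene's end and scored 69.11 and 79.89, the farther one at 19.6 kb being the peak closest to the 20-kb limit from inside. The CHD3 locus had the highest density of the 10, 5.88 peaks per 100 kb, against 1.99 over chromosome 17, and peaks covered 14.5% of its window. Windows of this length on chromosome 17 held a CHD5 peak in 60.8% of cases and an H3K27me3 region in 31.5%. The nearest H3K27me3 region was 51.2 kb from the span.

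At CHD4, on the minus strand of chromosome 12 from 6679000 to 6717000, 1 of 3 peaks spanned the start. That peak, chr12:6714899-6718996, reached from 2.0 kb before the start to 2.1 kb after it and scored 419.43, above 91.5% of the list. The peak at chr12:6722181-6724111 lay 5181 bp before the start, on the side of LPAR5, and scored 280.08. The peak at chr12:6661457-6663321 lay beyond the end of the gene, on the side of NOP2, and scored 133.32. Of chromosome 12 windows as long as this locus, 43.8% held a CHD5 peak and 35.0% an H3K27me3 region. At CHD4 no H3K27me3 region was listed within 200 kb, and the nearest was 444 kb away.

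HDAC2, a histone deacetylase of the complex, lies on the minus strand of chromosome 6 from 114257000 to 114292000 and had 2 peaks. The peak at the start, chr6:114291512-114293558, scored 159.31, the lowest of all peaks within 2 kb of a member's start. The other, chr6:114260782-114262995, was inside the gene 29.0 kb from the start and scored 76.58. On chromosome 6, 41.5% of windows of the HDAC2 length held a CHD5 peak and 38.0% an H3K27me3 region. As at CHD4, no H3K27me3 region was within 200 kb, and the nearest was 452 kb from the span.

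Among the Polycomb genes, JARID2 held a row of 14 CHD5 peaks along the gene and no H3K27me3. It lies on the plus strand of chromosome 6 from 15246000 to 15522000 and is the longest member. The peaks began at the start, within the rounding of the span, and ended 218 kb into the gene, leaving the last 58.2 kb without one. Gaps between neighbouring peaks were between 0.133 and 32.1 kb, with a median of 12.1 kb. Outside this row the next CHD5 peaks were 71.6 kb before the start and 199 kb after the last peak.

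The JARID2 peaks differed widely in strength. Their scores ran from 51.87 to 735.21 with a median of 147.6, and 10 of the 14 were at or above the list median. The strongest, chr6:15307742-15310986, lay 61.7 kb inside the gene, was 3245 bp wide and scored above 97.8% of the list. The peak at the start, chr6:15246001-15248594, scored 339.52, and chr6:15443908-15446000, 198 kb inside, scored 328.77. A peak at chr6:15364111-15366709 scored 303.96. The weakest, chr6:15252419-15253238 and chr6:15398850-15399631, were 820 and 782 bp wide and scored 51.87 and 51.99. Strong and weak peaks were mixed along the gene, and the strongest was not the one at the start.

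Per length, too, JARID2 was rich in CHD5 peaks, with 4.43 per 100 kb against 1.01 over chromosome 6. Of 540 windows of the same 316 kb on that chromosome, 73.5% held a CHD5 peak, the median held 2 and 11, or 2.04%, held at least 14. Over all chromosomes except Y, 247 of 9321 such windows, or 2.65%, did. The JARID2 peaks were also far from H3K27me3, between 948 and 1165 kb from the nearest region, with a median of 1084 kb, and 1.67% of all CHD5 peaks were farther than that median. For all 14 the nearest region was the same, chr6:14297413-14297573. The distances therefore differ only by position along the gene and describe 1 locus. On chromosome 6 in general 63.7% of windows of this length held an H3K27me3 region.

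**Figure D2:**
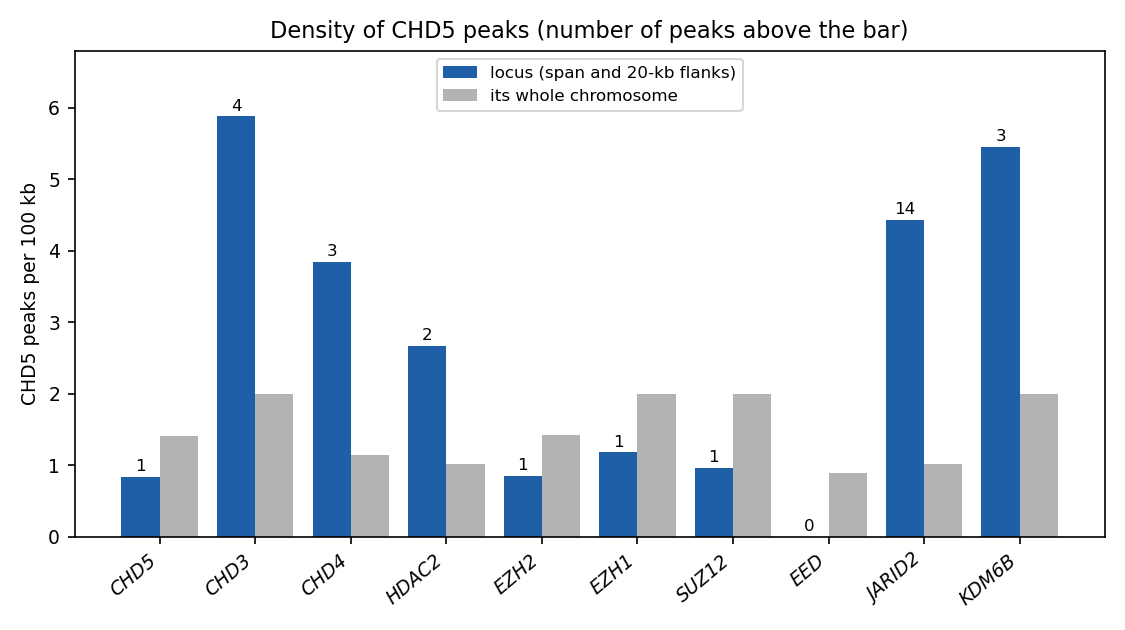
CHD5 peaks per 100 kb at each locus (blue) and over its whole chromosome (grey), with the number of peaks above the blue bar. CHD3, KDM6B, JARID2, CHD4 and HDAC2 stand above their chromosome, and EZH1, SUZ12, EZH2, CHD5 and EED stand below it.

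The enzymes and core subunits of the Polycomb complex held 1 CHD5 peak each or, at EED, 0, and none had a peak near the start. EZH2, the main methyltransferase of dividing cells, lies on the minus strand of chromosome 7 from 148504000 to 148582000 and had 1 peak, chr7:148542229-148547477. This peak was inside the gene, 34.5 kb from the start. At 5249 bp it was the widest of the 30 and wider than 97.7% of the list, while its score of 147.96 exceeded 60.7%. The nearest peak to the start was outside the locus, 21.4 kb upstream at chr7:148603375-148606563, with a score of 174.01. That peak shared 168 bp with an H3K27me3 region, chr7:148606396-148606719, of 324 bp and score 61.17, the only H3K27me3 region within 200 kb of the EZH2 span. Windows of the EZH2 length on chromosome 7 held a CHD5 peak in 63.4% of cases and an H3K27me3 region in 40.9%.

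EZH1, the second methyltransferase, lies on the minus strand of chromosome 17 from 40852000 to 40897000, and no CHD5 peak touched its span. The peak counted at this locus, chr17:40833796-40835308, was 16.7 kb beyond the end of the gene, on the side of CNTNAP1, and scored 163.01. Further in that direction, 20.8 kb from the span and closest to the 20-kb limit from outside, a peak of 4159 bp at chr17:40827079-40831237 scored 543.37. Upstream of the start, on the side of RAMP2, a CHD5 peak at chr17:40931792-40933212 was 34.8 kb away. An H3K27me3 group of 8 regions began 160 bp after it, 36.4 to 41.5 kb from the gene, with scores from 53.67 to 392.55, and 17 more regions followed between 100 and 200 kb. Of chromosome 17 windows as long as the EZH1 locus, 66.2% held a CHD5 peak and 34.8% an H3K27me3 region.

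SUZ12, on the plus strand of chromosome 17 from 30264000 to 30328000, also had no CHD5 peak in its span. Its 1 peak, chr17:30334603-30336226, was 6.6 kb beyond the gene's end and scored 112.94, the only one of the 4 single peaks below the list median. The nearest peak to the start was 28.1 kb upstream and scored 228.6. The nearest H3K27me3 region was 682 kb from the span. Windows of the SUZ12 length on the chromosome held a CHD5 peak in 68.8% of cases and an H3K27me3 region in 37.9%.

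EED, on the plus strand of chromosome 11 from 85955000 to 85990000, was the one locus without a CHD5 peak, and it was remote from the list altogether. The nearest CHD5 peaks were 1725 kb below and 3229 kb above the span. The stretch between them, 4989 kb from 84230265 to 89219465, was the third longest of 1199 gaps between CHD5 peaks on chromosome 11, whose median gap was 26.5 kb. H3K27me3 was listed in that stretch, at 89 regions, the nearest ones 394 kb below and 321 kb above EED. These are fewer than at the rate of chromosome 11 as a whole, 4.44 H3K27me3 regions per 100 kb. Of 1791 windows of the EED length on chromosome 11, 32.8% held a CHD5 peak and 29.1% an H3K27me3 region.

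KDM6B, the demethylase, lies on the plus strand of chromosome 17 from 7743000 to 7758000 and had 3 peaks around its start. The strongest, chr17:7739216-7741555, ended 1.45 kb before the start and scored 439.71, above 92.2% of the list. A weaker one, chr17:7737671-7738756, lay 4.24 kb before the start and scored 71.91. The third peak, chr17:7745511-7747290, was inside the gene and scored 156.19. The density of 5.45 peaks per 100 kb was second to that of CHD3. Of chromosome 17 windows as long as the KDM6B locus, 54.9% held a CHD5 peak and 29.2% an H3K27me3 region. KDM6B and CHD3 lie close together, with 30 kb between their spans, and their windows share 10 kb that held 0 CHD5 peaks. Their 7 peaks, within 98.9 kb, are therefore not from separate parts of the genome.

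A CHD5 peak lay within 2 kb of the start of 5 of the 10 genes, CHD3, CHD4, HDAC2, JARID2 and KDM6B. Of all positions on the chromosomes except Y, 6.05% were within 2 kb of a CHD5 peak, and the same share over all gene starts was not analysed here. For the other genes the nearest CHD5 peak was 21.4 kb from the start at EZH2, 28.1 kb at SUZ12, 34.8 kb at EZH1, 53.7 kb at CHD5 and 1725 kb at EED. No distance fell between 2 and 20 kb. An H3K27me3 region lay within 2 kb of 1 start, that of CHD5, where 11.8% of positions were as near to one. Within 1 kb, 0 starts had an H3K27me3 region, and the distance at CHD5 holds only to the 1-kb rounding of the span. For the other members the nearest H3K27me3 region was between 24.4 kb from the start at EZH2 and 948 kb at JARID2.

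**Figure D3:**
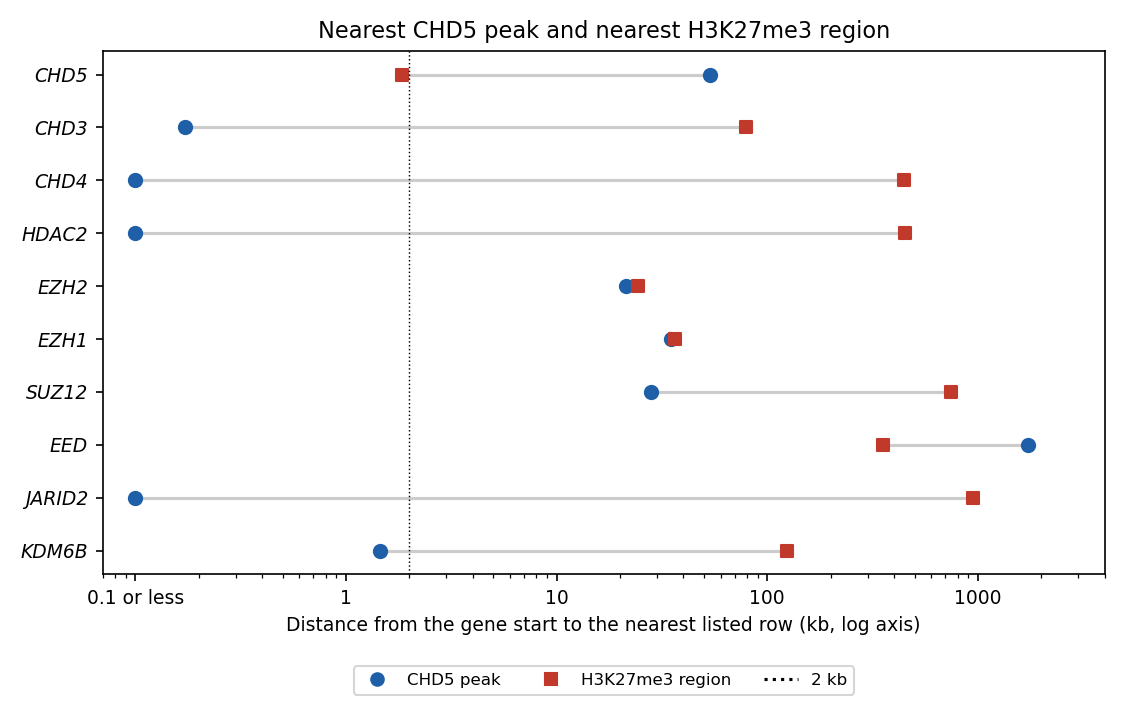
Distance from each gene start to the nearest CHD5 peak (circle) and the nearest H3K27me3 region (square) in kb on a log axis, with distances of 0.1 kb or less drawn at 0.1 and a dotted line at 2 kb. The circle lies left of the line for CHD3, CHD4, HDAC2, JARID2 and KDM6B, and the square lies left of it for CHD5 alone.

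The 5 loci with a peak near the start were the same 5 whose density exceeded that of their chromosome. The density includes the peaks near the start, so these groupings are not independent, and CHD3 and KDM6B are neighbours. Further than 2 kb from the start JARID2 had 13 peaks, CHD3, CHD4 and KDM6B had 2 each and HDAC2 had 1. Of the loci without a start peak, CHD5, EZH2, EZH1 and SUZ12 had 1 each and EED had 0. Windows of the same length and chromosome held at least as many CHD5 peaks in 11.2% of cases for CHD3, 12.1% for CHD4, 15.5% for KDM6B and 18.8% for HDAC2. For the 4 loci with 1 peak, between 63.0% and 68.8% of windows held at least 1 peak.

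Peaks near the starts scored higher than most other peaks of these loci. The 6 peaks within 2 kb of a start had a median score of 379.5, from 159.31 at HDAC2 to 726.07 at CHD3, and a median width of 2467 bp. The 24 others had a median score of 128.5, from 51.87 to 735.21, and a median width of 1702 bp. Of these 24, 13 were at JARID2, while the 6 came from 5 loci. Whether peaks near the starts of other genes score alike was not analysed here. The ranges overlapped, as 7 of the others scored above the HDAC2 start peak and 1, inside JARID2, scored above them all. Over all 30 peaks the median score was 147.8 and 21 were at or above the list median, which by definition divides the list evenly. Wider peaks scored higher across the 32543 peaks, with a Spearman rho of 0.750, so score and width are not separate measures, and peaks of 1 library are not replicates.

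**Figure D4:**
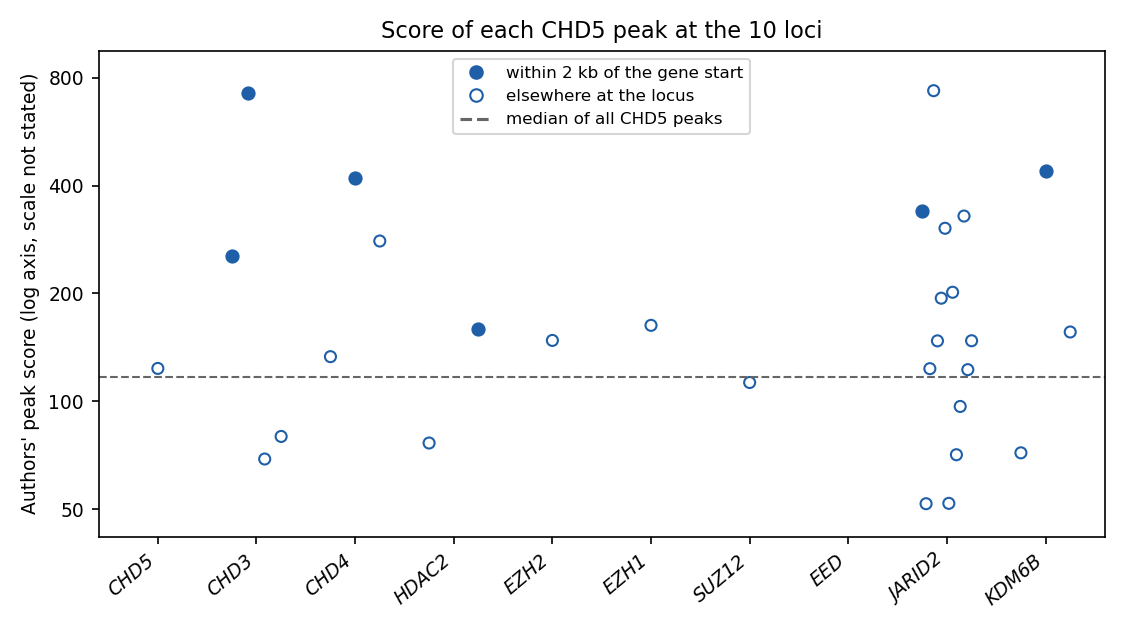
The authors' score of each CHD5 peak at the 10 loci on a log axis, in order of position within a locus, with filled circles for peaks within 2 kb of the gene start and open circles for the others. The dashed line is the median of all CHD5 peaks, 117.1, and all 6 filled circles lie above it, from 159.31 to 726.07.

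No CHD5 peak at these loci met H3K27me3. The overlap was 0 of 30 peaks. With 3 counts taken as the upper limit for a count of 0, an approximation, a share of up to 10.0% is allowed. The overlap therefore cannot be told apart from the 2.19% of all CHD5 peaks that shared at least 1 bp with an H3K27me3 region. That limit covers counting error only and treats peaks as independent, which neighbours at JARID2 are not. The 30 peaks lay between 30.6 and 1165 kb from the nearest H3K27me3 region, with a median of 586 kb, where all CHD5 peaks had a median of 166 kb and quartiles of 61.2 and 348 kb. The JARID2 peaks make up 14 of the 30 and set much of that median, so it does not describe all loci. The peaks at CHD5, CHD3, EZH2, EZH1 and KDM6B lay 30.6 to 128 kb from H3K27me3, all nearer than the list median. Those at CHD4, HDAC2 and SUZ12 lay 437 to 674 kb away. Out to 200 kb from the span, 5 loci had H3K27me3, with 1 region each at CHD5, EZH2 and KDM6B, 12 at CHD3 and 25 at EZH1. The region counted for KDM6B is also counted for CHD3.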

How the data were processed

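Of the 4 ChIP-seq libraries, 1 per group, 2 peak lists were used. Both hold MACS peak calls of 1 named library each, per the file headers. Positions are in hg19, as the submitters' processing notes say. The sources used here do not give the MACS version, threshold, aligner or background library, and rows called without a control can include places of generally high coverage. The authors deposited a score for each row, with a smallest value of 50 in both lists and no stated scale, so it was used only within its list.

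Rows belonged to a locus if they shared at least 1 bp with the gene span widened by 20 kb. Spans, rounded to 1 kb, came from the definition of the gene set, and strands from the RefSeq promoter table or, for CHD5, from general knowledge, so distances from starts hold to about 1 kb. Positions are counted from 1. Background windows of a locus's length were laid without overlap from the first to the last listed row of each chromosome. H3K27me3 regions up to 3 kb apart were joined into domains. At a locus with up to 5 rows of a list every row is given, and otherwise the highest scores and the row nearest the start. The members and descriptions were chosen with earlier results of these data known. The 100-kb limit for lone regions and the count of windows with at least 14 peaks were set after the values were seen. Routines were tested on simulated rows, and bedtools 2.31.1 gave the same 30 member peaks and 712 overlapping peaks. Python 3.11.15, numpy 2.4.6, pandas 2.3.3 and matplotlib 3.10.9 were used. Depth is unknown. The other genes of both complexes were not analysed here for want of an hg19 annotation.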

Additional observations from a re-analysis of the deposited data

How the results depend on the processing

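Of 43 alternatives, 32 left the value unchanged or within 1.5 times, or within its 95% exact binomial interval for the share of windows. The wider flanks moved the others most. With 50 kb on either side, 3 loci held H3K27me3, at 10 regions, and the same 3 held both lists. With 100 kb, 4 loci held H3K27me3, at 11 regions, 4 held both, and the CHD5 peaks numbered 60. The gene span alone left 7 loci with CHD5 and 21 peaks. Without the JARID2 locus, a choice made after the data were examined, 16 peaks remained. Within 1 kb of a start, 0 genes had an H3K27me3 region. The share of windows with a CHD5 peak, 44.0%, was 62.7% among windows that held a row of either list, and 42.8% without chromosome 7 and chromosome 17, again chosen afterwards. These follow from how the alternatives are built: a wider or narrower search, fewer loci, or fewer windows. No paired analysis was possible because each group has 1 library and no result comes from a test. For the same reason no replicate could be left out.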
